A study of Mus musculus with 6 samples.

Results

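Genes grouped under digestion and nutrient uptake at the intestinal brush border were followed in mouse colon after long-term exposure to PFOA (perfluorooctanoic acid). PFOA is a fluorinated surfactant that persists in the environment. The 5 genes are Sis, Alpi, Prap1, Amn and Rbp2, taken by symbol from the 2033 gene rows of the authors' table, and each had 1 row. The PFOA group comprised 3 colon libraries from exposed mice and the control group 3 colon libraries from control mice. The labels state that 6 mice per group were frozen, but do not tie mice to libraries, and they state neither strain, sex, age, dose, duration nor the part of the colon. The p-values below therefore measure the spread between libraries, and a difference in the part of the colon sampled cannot be told apart from the exposure.

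The brush border is the carpet of microvilli on the apical face of absorptive epithelial cells. Enzymes anchored there finish the digestion of sugars, peptides and phosphate esters, and receptors and transporters beside them take up vitamins, amino acids and fats. In mammals these genes are best known from the small intestine, where enterocytes carry far more of them than the absorptive cells of the colon do.

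Of these genes, 4 were higher and Rbp2 was lower in the PFOA libraries. Prap1 differed most, at 181-fold higher in PFOA by summed counts, followed by Sis at 43.0-fold, Alpi at 19.0-fold and Amn at 18.7-fold, while Rbp2 was 4.74-fold lower. Values of the PFOA and control libraries did not overlap for any of the 5 genes. The table, however, holds only rows that differ between the groups: log2 ratios of mean raw counts between -1.08 and 0.92 do not occur in it. Of the rows with counts high enough for a test, 100% were called, 50.0% higher and 50.0% lower in PFOA, and 98.0% had groups that did not overlap. Being called is therefore no result about these genes, and the values below describe size, spread and order. The 4 higher genes stood at places 11 (Prap1), 37 (Sis), 71 (Alpi) and 72 (Amn) by fitted fold change among the 804 rows called higher, and Rbp2 at place 297 among the 804 called lower.

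The listed counts per library summed to between 2136897 and 2269892 in PFOA and between 1771120 and 2155472 in control, which are sums over listed rows and not sequencing depths. Among the exposed libraries, PFOA replicate 1 lay far from the others on the second principal component of log2 CPM (scaled counts). It stood at 23.5 against -11.7 and -12.8 for PFOA replicates 2 and 3, and results that turn on it are marked. The second component held 5.6% of the variance and the first 88.2%. Control replicate 1 also lay apart on the second, less far, at 7.6 against -3.8 and -2.8 for control replicates 2 and 3. Colonocyte markers had counts in every library. Car1, a carbonic anhydrase, had 125029, 39638 and 50026 counts in PFOA and 5727, 17063 and 10999 in control, and Slc26a3, the chloride-bicarbonate exchanger of the colon surface, had 18783, 6770 and 7256 counts in PFOA and 44864, 60351 and 56990 in control.

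The promoter sequences of 4 of the genes are shown here because those genes hold matches to letters bound by factors known from enterocyte genes. Each is the stretch of 250 bases upstream of the RefSeq start (GRCm38.p6, the assembly behind mm10), written 5′ to 3′ along the gene's own strand, with the matches in capitals. The RefSeq start of Rbp2 lies inside the gene as the authors' table bounds it.
Sis (chr3:72967864-72968113, minus strand): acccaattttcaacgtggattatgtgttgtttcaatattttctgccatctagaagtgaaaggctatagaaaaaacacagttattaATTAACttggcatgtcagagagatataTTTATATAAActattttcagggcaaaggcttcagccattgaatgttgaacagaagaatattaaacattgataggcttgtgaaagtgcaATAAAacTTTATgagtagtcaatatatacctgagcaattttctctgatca
Alpi (chr1:87101607-87101856, minus strand): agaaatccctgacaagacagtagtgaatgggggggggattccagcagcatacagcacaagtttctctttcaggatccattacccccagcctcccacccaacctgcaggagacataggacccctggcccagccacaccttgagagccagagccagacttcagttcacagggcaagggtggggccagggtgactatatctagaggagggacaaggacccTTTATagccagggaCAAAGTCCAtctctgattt
Prap1 (chr7:140093146-140093395, plus strand): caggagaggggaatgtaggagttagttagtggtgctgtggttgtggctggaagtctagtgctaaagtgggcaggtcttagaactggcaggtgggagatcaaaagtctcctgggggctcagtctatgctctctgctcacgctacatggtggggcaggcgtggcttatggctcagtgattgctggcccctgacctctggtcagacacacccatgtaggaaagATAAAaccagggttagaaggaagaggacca
Rbp2 (chr9:98490287-98490536, plus strand): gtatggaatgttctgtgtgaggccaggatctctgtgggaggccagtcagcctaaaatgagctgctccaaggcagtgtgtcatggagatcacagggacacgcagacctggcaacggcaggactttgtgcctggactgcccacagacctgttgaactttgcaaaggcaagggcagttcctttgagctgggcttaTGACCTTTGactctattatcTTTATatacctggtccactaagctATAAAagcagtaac
Searched on both strands were TTTAT, the core recognised by caudal homeobox factors such as CDX2, GTTAAT, part of the site of hepatocyte nuclear factor HNF1, CAAAGTCCA, a sequence preferred by the nuclear factor HNF4, and CAAAGGTCA, found in direct repeats bound by nuclear receptors. Positions count upstream from 1 at the base next to the start.

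Sis held 4 TTTAT matches, at 138 to 134, 133 to 129, 50 to 46 and 43 to 39 bases upstream, and 1 GTTAAT match at 165 to 160. The first 2 TTTAT matches adjoined and the last 2 lay close together, each pair in opposite orientations. Among 32851 promoter windows of the same length, 37.3% held TTTAT, 5.69% held it at least 3 times and 6.43% held GTTAAT. Alpi held TTTAT at 33 to 29 and CAAAGTCCA at 19 to 11, the second a sequence in 0.384% of windows. Rbp2 held TTTAT at 38 to 34 and 14 to 10 and CAAAGGTCA, on the opposite strand, at 58 to 50, a sequence in 0.426% of windows. Prap1 held a single TTTAT at 30 to 26, and the window of Amn held none of these letters. The motifs were chosen with the sequences in view. Matches occurred both in genes that were higher and in Rbp2, which was lower, and a match is a description of letters and not of binding. TTTAT matches near the start were not told apart from a TATA box, and none was assigned to a factor.

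**Figure D1:**
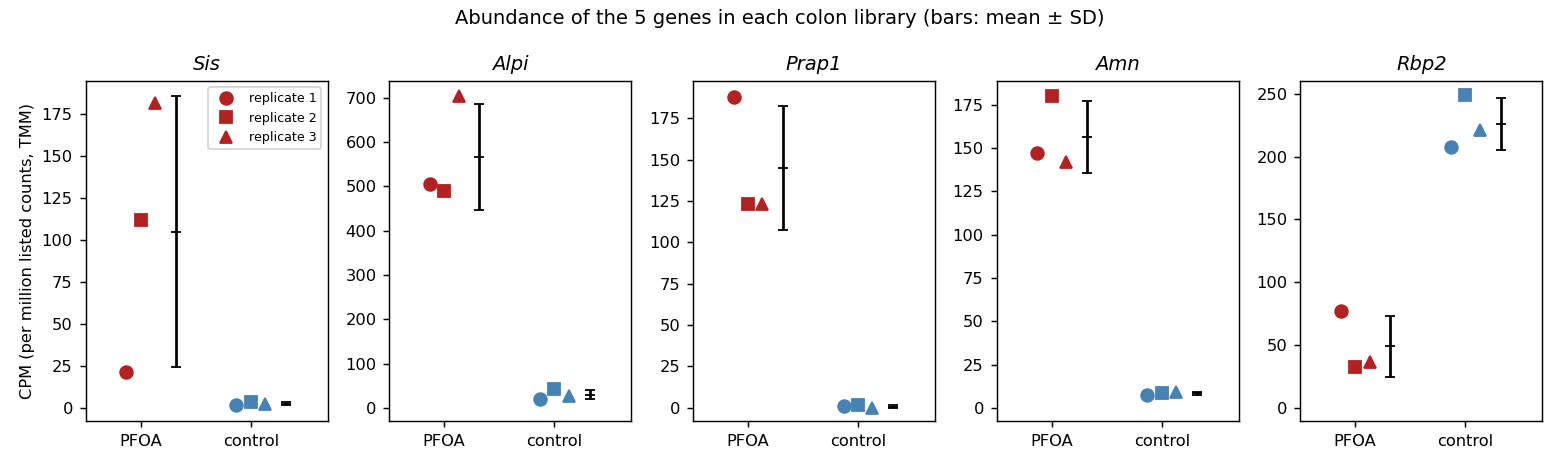
Abundance of Sis, Alpi, Prap1, Amn and Rbp2 in CPM, the scaled counts of a library (vertical axes, linear, with their own range for each gene) in the 3 PFOA libraries (left of each panel) and the 3 control libraries (right), with marker shape giving the replicate and bars the mean ± SD. Sis, Alpi, Prap1 and Amn lie higher in every PFOA library, Rbp2 lies lower in every PFOA library, and the points of Sis in PFOA spread from 21.4 to 182 CPM.

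Sis encodes sucrase-isomaltase, the brush border enzyme that splits sucrose and starch-derived sugars. The gene (ENSMUSG00000027790.14) lies on the minus strand of chromosome 3 at 72888557 to 72967863 (mm10). Sis had 40, 237 and 390 counts in PFOA replicates 1, 2 and 3, against 4, 7 and 5 in control. All PFOA libraries lay above all controls, but PFOA replicate 1 was far below the other PFOA libraries. Sis averaged 105 ± 80.5 CPM in PFOA and 2.53 ± 0.755 CPM in control (SD, n = 3 each), where CPM are counts per 1000000 counts in tested rows, scaled with trimmed-mean (TMM) factors. The log2 fold change was 5.34 ± 0.84 (SE; edgeR's quasi-likelihood test, Benjamini-Hochberg adjusted p = 9.91e-04), and 4.69 without PFOA replicate 3. With 16 control counts in all, the 43.0-fold ratio of summed counts has a 95% counting interval from 26.3 to 75.6, and intervals of this kind cover counting error only.

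Alpi encodes intestinal alkaline phosphatase, which removes phosphate from nutrients and from bacterial lipopolysaccharide at the brush border. The gene (ENSMUSG00000079440.2) lies on the minus strand of chromosome 1 at 87098002 to 87101606, beside the related genes Akp3 and Alppl2. Alpi had 944, 1039 and 1506 counts in PFOA, against 43, 87 and 59 in control. The PFOA libraries were close to each other, with a highest-to-lowest ratio of 1.44 in CPM, and lay well above the controls. Alpi averaged 566 ± 119 CPM in PFOA and 29.9 ± 10.9 CPM in control (SD, n = 3 each), a log2 fold change of 4.24 ± 0.35 (SE; edgeR's quasi-likelihood test, Benjamini-Hochberg adjusted p = 9.65e-05). Some stretches of its annotated transcripts also occur in transcripts of related genes, and a read from them alone could not be placed. The share was 4.57% of stretches of 40 bases and 2.4% of those of 50 bases, with copies in Akp3, Alppl2 or the pseudogene Akp-ps1, and 0.834% of those of 60 bases, with copies in Akp3 or Akp-ps1. For Sis it was 0.189%, 0.135% and 0% at these lengths, and Amn, Prap1 and Rbp2 shared no stretch at any of them.

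The 2 digestive enzymes differed in how they varied within PFOA. Per kilobase of row length, Sis stood at 0.0133, 0.0714 and 0.0811 of Alpi in PFOA replicates 1, 2 and 3, against 0.0291, 0.0252 and 0.0265 in control. This ratio is taken within a library and needs no scaling between libraries. It was above the controls in PFOA replicates 2 and 3 and below them in PFOA replicate 1, so the groups overlap in this ratio.

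Prap1 encodes proline-rich acidic protein 1, a secreted epithelial protein that in mice binds the microsomal triglyceride transfer protein and aids lipid export. The gene (ENSMUSG00000025467.8) lies on the plus strand of chromosome 7 at 140093395 to 140097200. Prap1 had 351, 261 and 264 counts in PFOA, against 2, 3 and 0 in control. It was near absent from the controls and moderately abundant in every PFOA library. Prap1 averaged 145 ± 37.6 CPM in PFOA and 0.809 ± 0.74 CPM in control (SD, n = 3 each). The log2 fold change was 7.40 ± 0.62 (SE; edgeR's quasi-likelihood test, Benjamini-Hochberg adjusted p = 1.05e-04). It was 8.05 without control replicate 2 and 6.70 without control replicate 3, since 5 control counts in all set its size. The 95% counting interval of the 181-fold ratio runs from 77.1 to 558. The end of Prap1 overlaps Fuom on the opposite strand, with 169 shared exon bases (27.3% of the exon bases of Prap1). Fuom has no row, and whether counting used strand was not given in the sources used here.

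Amn encodes amnionless, the membrane anchor that joins cubilin in the receptor for vitamin B12 bound to intrinsic factor. The gene (ENSMUSG00000021278.7) lies on the plus strand of chromosome 12 at 111271095 to 111276426. Amn had 275, 382 and 304 counts in PFOA, against 15, 18 and 20 in control. Its libraries were the most even of the 5 genes within PFOA, with a highest-to-lowest ratio of 1.27 in CPM, and the ratio within control was 1.24. Amn averaged 156 ± 20.5 CPM in PFOA and 8.36 ± 0.927 CPM in control (SD, n = 3 each), a log2 fold change of 4.21 ± 0.28 (SE; edgeR's quasi-likelihood test, Benjamini-Hochberg adjusted p = 4.69e-05).

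Cubn, which encodes the partner cubilin, was also higher, with 121, 396 and 583 counts in PFOA and 42, 39 and 51 in control. Its log2 fold change was 3.06 ± 0.51 (SE, n = 3 per group; edgeR's quasi-likelihood test, Benjamini-Hochberg adjusted p = 0.0013). Per kilobase, Amn stood at 18.4, 7.82 and 4.23 times Cubn in PFOA replicates 1, 2 and 3, against 2.89, 3.74 and 3.18 times in control. Every PFOA library lay above every control in this ratio, although PFOA replicate 3 was close to control replicate 2. Within PFOA the CPM of Cubn varied 4.19-fold between libraries and that of Amn 1.27-fold.

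Rbp2 encodes the retinol-binding protein of the absorptive cell, which holds retinol and retinal for conversion to retinyl esters. The gene (ENSMUSG00000032454.9) lies on the plus strand of chromosome 9 at 98486115 to 98509781. Rbp2 had 144, 69 and 79 counts in PFOA, against 426, 515 and 487 in control. All PFOA libraries lay below all controls, with PFOA replicate 1 the nearest to them. Rbp2 averaged 48.8 ± 24.6 CPM in PFOA and 226 ± 21.2 CPM in control (SD, n = 3 each), a log2 fold change of -2.21 ± 0.37 (SE; edgeR's quasi-likelihood test, Benjamini-Hochberg adjusted p = 0.00124). The predicted gene Gm37113 lies inside Rbp2 on the same strand without sharing exon bases. Its own row had 4, 6 and 0 counts in PFOA and 14, 19 and 19 in control.

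Lrat and Bco1 act beside Rbp2 in vitamin A uptake, and they went opposite ways. Lrat, which esterifies the retinol that Rbp2 carries, had 277, 448 and 343 counts in PFOA and 149, 157 and 206 in control, a log2 fold change of 1.10 ± 0.25 (SE; edgeR adjusted p = 0.00399). Bco1, which cleaves beta-carotene to retinal, had 22, 25 and 29 counts in PFOA and 49, 78 and 93 in control, a log2 fold change of -1.48 ± 0.34 (SE; edgeR adjusted p = 0.00422). Bco1 was named after its values were seen. Rbp2 thus moved with Bco1 and against Lrat. Groups did not overlap for any of these genes, as for 98.0% of all tested rows.

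Per kilobase of row length, which lets levels be compared between genes, the order in PFOA was Alpi, Prap1, Amn, Rbp2 and Sis. Mean levels there were 242 ± 50.8 CPM per kilobase for Alpi, 233 ± 60.6 for Prap1, 84.8 ± 11.1 for Amn, 50.8 ± 25.6 for Rbp2 and 14.1 ± 10.8 for Sis (SD, n = 3). Alpi and Prap1 overlapped in their libraries, and so did Amn and Rbp2, because Rbp2 reached 80.2 in PFOA replicate 1. In control the order was Rbp2, Alpi, Amn, Prap1 and Sis, at 235 ± 22.1, 12.8 ± 4.67, 4.54 ± 0.503, 1.30 ± 1.19 and 0.34 ± 0.101 CPM per kilobase (SD, n = 3). In control only Prap1 and Sis overlapped. Rbp2 was thus the most abundant of the 5 genes per length in control and the fourth in PFOA. Within a library, Alpi stood at 2.70, 6.20 and 7.85 times Rbp2 per kilobase in PFOA and at 0.0416, 0.0695 and 0.0499 times in control, a comparison that no scaling between libraries can turn.

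**Figure D2:**
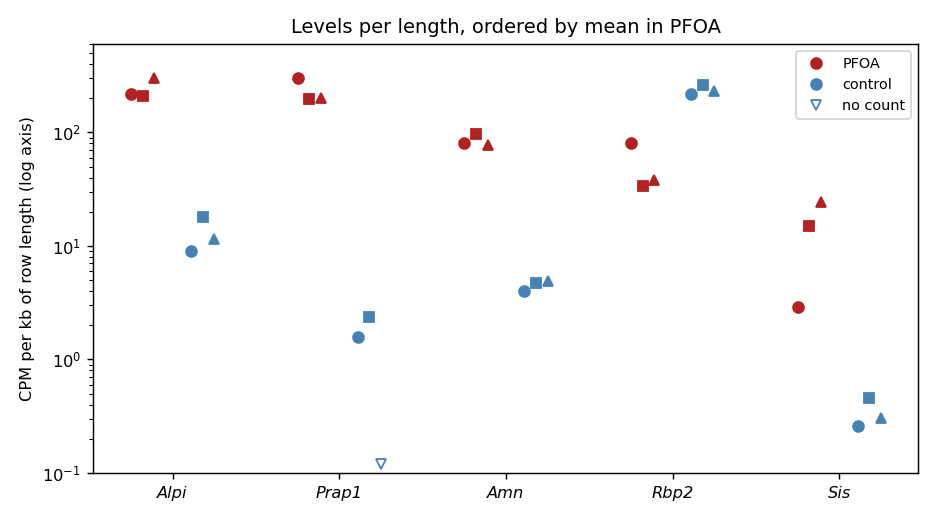
Level of each gene in CPM per kilobase of row length (vertical log axis) in every PFOA library (left of each pair) and control library (right), ordered by the mean in PFOA. Open triangles mark a library without a count (drawn at the foot of the axis). Alpi and Prap1 lead in PFOA at 242 and 233 CPM per kilobase, and Rbp2 leads in control at 235.

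Among related genes, 5 lists of brush border digestion and nutrient uptake with 114 genes had 28 rows, the 5 genes included. Of these, 26 were tested, 17 higher and 9 lower in PFOA, beside 50.0% each way over all tested rows. The untested rows, Trpv6 and Pdzk1, were too low to be tested and had fewer counts in PFOA. For a gene of these lists that has no row, nothing can be said from this table. Hydrolases went both ways: of 8 tested rows of brush border hydrolases, 6 were higher, Sis and Alpi among them, and 2 were lower, with a median log2 fold change of 1.49 beside -0.03 over all tested rows. Mep1a, the metalloprotease meprin alpha, had 9379, 9215 and 8802 counts in PFOA and 3723, 4181 and 4903 in control, a log2 fold change of 1.15. Xpnpep2, an aminopeptidase for peptides with proline, had a log2 fold change of 1.60 and Enpep, glutamyl aminopeptidase, one of 1.38, both with smaller folds than Sis or Alpi. Ace, the angiotensin-converting peptidase, had 724, 538 and 661 counts in PFOA and 2597, 1316 and 1993 in control, a log2 fold change of -1.56.

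Rows of sugar, amino acid and peptide uptake were lower in 3 of 4 tested (median log2 fold change -2.25). Slc15a1, the apical peptide transporter PEPT1, had 670, 552 and 531 counts in PFOA and 9825, 7448 and 8632 in control, 14.3-fold lower (log2 fold change -3.83 ± 0.27, SE; edgeR adjusted p = 5.46e-05). Slc36a1, a proton-coupled amino acid transporter, was 4.37-fold lower. Slc1a1, a glutamate transporter, had a log2 fold change of -2.37, which was -2.99 when PFOA replicate 2 was left out. Slc5a9, a sodium-coupled sugar transporter, was 3.90-fold higher. Slc15a1 and Rbp2 were thus lower in the same libraries in which Sis and Alpi were higher, and Slc15a1 fell the most of the tested rows in these 5 lists.

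Vitamin, iron and calcium uptake had 4 rows higher and 3 lower among 7 tested (median log2 fold change 1.10), beside 1 row too low to be tested. This row, Trpv6, a calcium channel, was named after its values were seen. It had 0, 1 and 0 counts in PFOA and 22, 4 and 7 in control. Amn, Cubn, Lrat and S100g were higher, and Rbp2, Bco1 and Slc46a1 were lower. Slc46a1, the proton-coupled folate transporter, had 42, 57 and 80 counts in PFOA and 481, 332 and 340 in control, 6.25-fold lower. S100g, the calcium-binding protein calbindin-D9k, had 3496, 384 and 68 counts in PFOA and 53, 8 and 8 in control. Its log2 fold change of 5.97 became 3.22 without PFOA replicate 1, 6.56 without PFOA replicate 3 and 7.36 without control replicate 1, and it was 4.87 by limma-voom and 5.20 in the fit blocked on the replicate number. The intrinsic factor receptor pair and the folate transporter, both vitamin uptake systems, therefore differed in opposite directions.

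Fat absorption rows were higher in 5 of 6 tested (median log2 fold change 3.34), Prap1 among them. Fabp2, the intestinal fatty acid-binding protein, had 9290, 4755 and 4402 counts in PFOA and 134, 874 and 314 in control, a log2 fold change of 3.88, or 4.86 without control replicate 2. Apob, the scaffold of chylomicrons, had 8328, 1821 and 1814 counts in PFOA and 392, 823 and 706 in control, a log2 fold change of 2.76. Leaving out PFOA replicate 1 gave 1.46 for Apob. Mogat2, a monoacylglycerol acyltransferase, had 61, 25 and 27 counts in PFOA and 0, 4 and 3 in control, a log2 fold change of 4.02. It was 3.36 without PFOA replicate 1, 3.34 without control replicate 1 and 4.61 without control replicate 2. Npc1l1, which takes up dietary cholesterol, had 19, 44 and 77 counts in PFOA and 6, 5 and 9 in control. The row lower in PFOA merges Apoc2, Gm44805 and Apoc4, and had 14, 12 and 23 counts in PFOA and 40, 132 and 66 in control, a log2 fold change of -2.24. Of 26 genes of brush border structure, Tmigd1 and Pdzk1 had a row. Tmigd1, an adhesion protein of the microvillar membrane, had 1586, 1591 and 1872 counts in PFOA and 18, 244 and 95 in control, a log2 fold change of 3.86, or 3.21 without control replicate 1 and 4.94 without control replicate 2 (4.52 by limma-voom). Pdzk1, a scaffold protein below the membrane, had no count in PFOA and 6, 7 and 4 in control, at least 5.50-fold lower against a floor of 3 counts over the PFOA group.

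**Figure D3:**
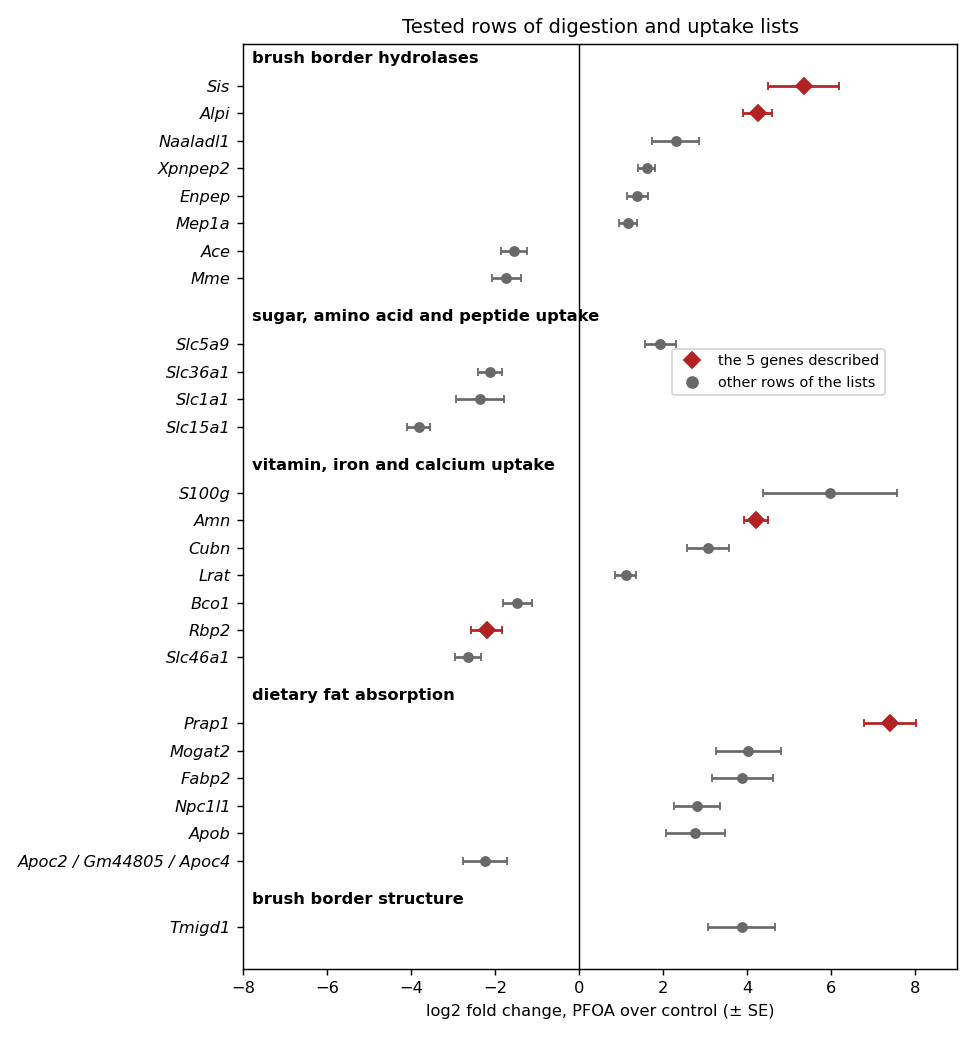
Fitted log2 fold change of PFOA over control with its standard error (horizontal axis) for the 26 tested rows of 5 lists, with Sis, Alpi, Prap1, Amn and Rbp2 as red diamonds. Hydrolases and fat absorption lie mostly to the right of 0, peptide and amino acid transporters to the left, and Prap1 lies farthest right at 7.40.

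The 5 genes and the other rows of the lists took different places in PFOA replicate 1, at shares near those of all tested rows. Among the 26 tested rows of the lists, PFOA replicate 1 was the highest PFOA library in 10, the lowest in 10 and between the others in 6 (38.5%, 38.5% and 23.1%), against 41.2%, 41.4% and 17.4% over all tested rows. Sis was lowest there, as were Cubn, Npc1l1 and Naaladl1, a peptidase of the brush border named after its values were seen. Naaladl1 had 191, 930 and 1060 counts in PFOA and 192, 113 and 140 in control, so that PFOA replicate 1 nearly met control replicate 1 (102 and 93.6 CPM). Prap1 and Rbp2 were highest in PFOA replicate 1, as were Fabp2, Apob, Mogat2 and S100g. Alpi and Amn lay between the other PFOA libraries and differed little. Sis varied 8.49-fold across the PFOA libraries in CPM, Rbp2 2.38-fold, Prap1 1.53-fold, Alpi 1.44-fold and Amn 1.27-fold.

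**Figure D4:**
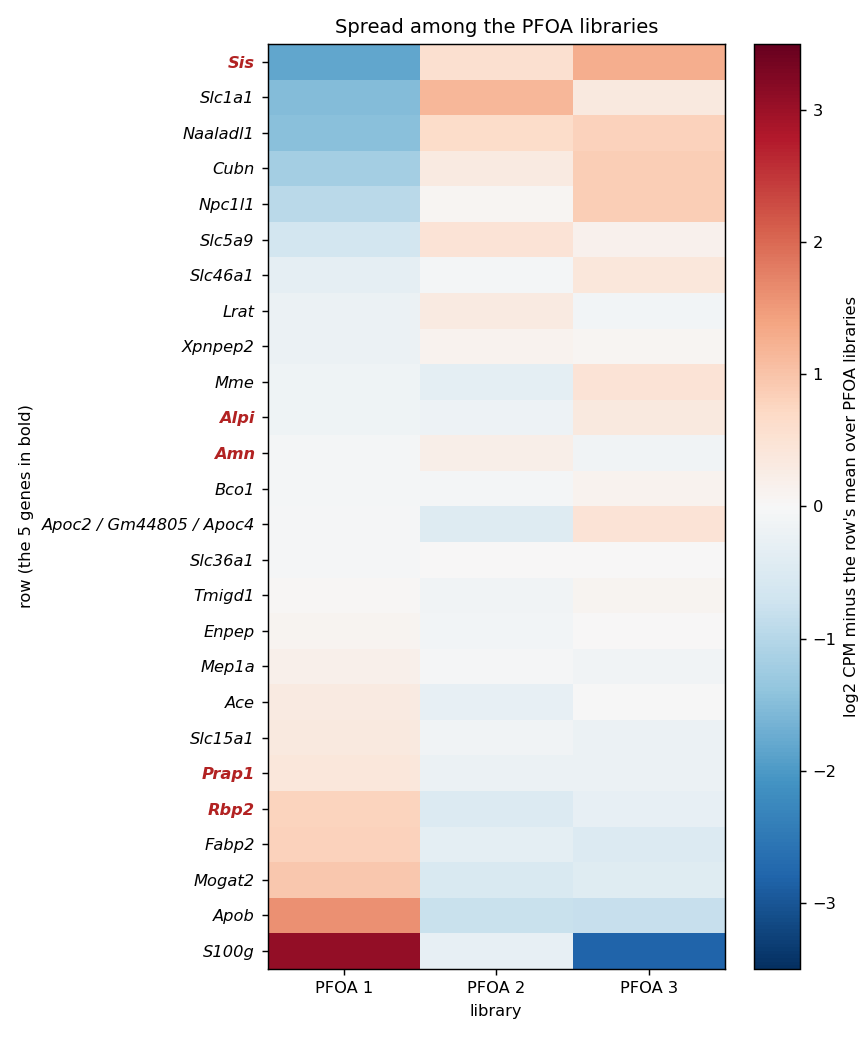
Deviation of log2 CPM from the row's mean over the PFOA libraries (colour) in PFOA replicates 1, 2 and 3 (columns) for the 26 tested rows of the lists (rows, ordered by PFOA replicate 1). Sis, Slc1a1, Naaladl1 and Cubn lie lowest in PFOA replicate 1, Apob and S100g lie highest there, and Alpi and Amn stay near their mean.

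The rows whose pattern over the 6 libraries was most like each gene were sought among 985 tested protein-coding rows with a single symbol, by the root mean square difference of log2 CPM profiles centred on their means. For Sis the nearest was Mmp7, the Paneth cell protease matrilysin, at a difference of 0.59, with 34, 365 and 536 counts in PFOA and 3, 5 and 1 in control. Another marker of the Paneth cell list, Mptx2, was lower in PFOA. Mmp7 was followed by Car8 (0.65) and Cyp4b1 (0.66). For Alpi the nearest were Hsd17b13 (0.17), Hkdc1 (0.19) and Akr1c18 (0.36), and for Amn they were Gm7579 (0.29), Akr1c18 (0.31) and Hsd17b13 (0.32). Prap1 was nearest to Plet1 (0.34), Cyp2c65 (0.36) and Sptssb (0.45). Rbp2 was nearest to Cyp2a12 (0.14, at no more than 17 counts in a library), Etv4 (0.18) and the anion exchanger Slc26a3 (0.18), given above. Among the 5 genes themselves, Alpi and Amn were the closest pair (0.36), Sis lay 0.84 from Alpi, and Prap1 lay 1.21 from its nearest, Alpi. Since all rows differ between the groups, a small difference mostly restates a like fold change.

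A list of 21 transcription factors, of enterocytes or of body position (Hoxb13), was chosen with earlier results known. Of these, 6 had a tested row, 5 higher and 1 (Hoxb13) lower in PFOA, beside 100% of tested rows called and 50.0% each way. Cdx2, the caudal homeobox factor of intestinal identity, had 4617, 3549 and 4066 counts in PFOA and 619, 1313 and 868 in control. Isx, an intestine-specific homeobox factor, had 11005, 17144 and 14436 counts in PFOA and 67, 822 and 237 in control, with a log2 fold change of 5.27 (5.91 in the fit blocked on the replicate number, 5.93 by limma-voom, 4.63 without control replicate 1 and 6.57 without control replicate 2). Nr1h4, a nuclear receptor for bile acids, was 3.28-fold higher. Hoxb13, a factor of the most posterior body axis, had 0, 6 and 3 counts in PFOA and 9884, 5730 and 7988 in control. The libraries with high Sis, Alpi, Prap1 and Amn were thus those with nearly no Hoxb13. Nearly any higher and lower row of the table pair in that way, since its rows differ between the groups. Within PFOA, replicate 1 had 0 Hoxb13 counts and the lowest Sis. The part of Hoxb13 in these results was not tested.

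Small intestinal enterocyte markers, a list that includes Sis, Alpi and Rbp2, had rows for 8 of 20 genes. Of these, 6 were higher and 2 lower, beside 50.0% each way over all tested rows. They summed to between 9440 and 12600 CPM in PFOA and between 7090 and 7240 CPM in control. Most of the sum was Mep1a (4110 to 5030 CPM) and Fabp2 (2050 to 4980 CPM) in PFOA. In control most of it was Slc15a1 (3600 to 4790 CPM) and Mep1a (1820 to 2220 CPM). Slc10a2, the ileal bile acid transporter, was 3.64-fold higher, and Slc15a1 was lower as given above. Colonocyte markers had rows for 13 of 19 genes, 4 higher and 9 lower, and summed to between 55500 and 133000 CPM in PFOA and between 45600 and 76700 CPM in control. The sums hide opposite changes. Car1 and Cyp2c55, both higher, had 67000 and 41500 CPM in PFOA replicate 1. Among the 9 lower rows, Atp12a was 118-fold and Aqp4 23.9-fold lower, both named after their values were seen. In bulk tissue, fewer cells of a type and less RNA per cell cannot be told apart. The summed levels of Paneth and goblet cell markers overlapped between the groups, as did those of the colonocyte markers. Paneth cell markers had rows for 3 of 12 genes, 2 higher and 1 lower, and summed to between 330 and 1590 CPM in PFOA and between 250 and 1940 CPM in control. Mptx2, a mucosal pentraxin on that list, had 6, 66 and 92 counts in PFOA and 132, 3403 and 2040 in control, opposite in direction to Mmp7. Goblet cell markers had rows for 6 of 12 genes, with 4 rows higher and 4 lower, and summed to between 150000 and 332000 CPM in PFOA and between 144000 and 264000 CPM in control. The higher rows were Spdef and several rows of the same gene, Muc2, all of which enter the sums. The lower rows were Tff3, Clca1, Zg16 and the merged row of Fcgbp. Summed levels of the remaining marker lists did not overlap between the groups, and all their rows come from a table of rows that differ. Immune cell markers (4 of 17 genes) summed to 87.2 to 252 CPM in PFOA and 30.0 to 59.0 CPM in control. Adipocyte markers (6 of 10 genes) summed to 291 to 1680 CPM in PFOA and 34.5 to 92.6 CPM in control. In PFOA replicate 2 this sum was mainly Lpl (219 CPM) and Cidec (67.8 CPM), with 0 counts of Adipoq and Plin1. Groups overlapped for Adipoq, Plin1, Cfd and Car3, so the sums do not show each marker higher in every PFOA library. Smooth muscle markers (2 of 10 genes) summed to 2220 to 3230 CPM in PFOA and 4290 to 9450 CPM in control. Pancreatic acinar markers (2 of 15 genes) summed to 56.0 to 69.1 CPM in PFOA and 930 to 1580 CPM in control. No listed marker of these lists was without counts in a whole group, and the part of other cell types in the results on the 5 genes was not tested.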

How the data were processed

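Colon RNA of 3 PFOA and 3 control libraries was sequenced; per the labels' protocols, a SMARTER mRNA-Seq kit was used. HISAT2, HTSeq and mm10 are named, without versions, in the submitters' processing notes. The authors deposited 1 table of raw read counts per gene row with row lengths, whose columns match the sample descriptions in the labels. The rule that selected its 2033 rows, strand use and the handling of multi-mapping reads were not given in the sources used here. Depth is unknown.

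The main test was edgeR's (version 4.0.16, in R 4.3.3). After filterByExpr, 1608 rows remained, the 5 genes among them. TMM factors were used with glmQLFit and glmQLFTest of PFOA against control, two-sided, at a Benjamini-Hochberg adjusted p of 0.05 over all tested rows (largest adjusted p 0.0408). The design assumed a table of all genes; on selected rows, calls and scaling are relative to those rows. SE is the absolute log2 fold change over the square root of F. Counting intervals are 95% Clopper-Pearson. Log2 CPM used a prior count of 2. The step was tested on simulated counts in which most rows were unchanged and all shared a common dispersion. That setting differs from this table of selected rows, so the simulation cannot tell how the test behaves on it. No replicate pair agreed within sampling noise (smallest chi-square per degree of freedom 19.3).

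The genes and lists were chosen with earlier results of these data known. Named per pathway list were the 5 genes and up to 4 other single-symbol rows, those with the highest mean CPM; marker lists are given mostly by counts and sums, and rows merging several genes were outside the rule. Promoters come from RefSeq (GRCm38.p6; 5 of 5 genes matched), transcripts and exons from GENCODE M21. Stretch lengths for shared sequence were set after results were seen. Member coordinates in the table equal those of GENCODE. The labels do not say that same-numbered libraries pair. Their deviations from group means correlated at 0.11, -0.03 and 0.10, which cannot decide it with so few libraries. Alternatives were DESeq2 1.42.0, limma-voom (limma 3.58.1), other scalings and filters, removal of abundant rows, the replicate block and each library left out.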

Additional observations from a re-analysis of the deposited data

How the results depend on the processing

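All 5 genes kept their direction and stayed past an adjusted p of 0.05 under each of the 14 alternatives run. Most fitted rows were also called in every setting, because the authors' table holds only rows that differ. Staying called is therefore no result about these genes. Without 1 library at a time, the log2 fold change ranged from 4.69 to 5.80 for Sis, 3.90 to 4.52 for Alpi, 6.70 to 8.05 for Prap1, 4.0 to 4.29 for Amn and -2.73 to -1.93 for Rbp2. Over the other alternatives it ranged from 4.84 to 5.32 for Sis, 4.05 to 4.27 for Alpi, 7.19 to 7.51 for Prap1, 4.02 to 4.21 for Amn and -2.45 to -2.21 for Rbp2. With the replicate number as a block it was 5.07 for Sis, 4.27 for Alpi, 7.43 for Prap1, 4.21 for Amn and -2.31 for Rbp2, and the block left 1579 listed rows called against 1608. Not every library correlated best with its own number. The number of listed rows called ranged from 1531 of 1697 fitted without control replicate 3 to 2031 of 2033 fitted without a filter. Library totals alone moved the median row by -0.20 on the log2 scale and DESeq2 by -0.18, with no change of direction for the 5 genes. Without PFOA replicate 1, an alternative chosen after seeing the data, the counts of higher hydrolase, vitamin, fat and small intestinal enterocyte rows and of lower sugar, amino acid and peptide uptake rows equalled those given; counts of the other lists and directions were not rerun. Depth limits Prap1 and Sis most, with 5 and 16 control counts.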
